A study of Mus musculus with 4 samples.

Results

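Lymphatic endothelial nuclei were taken from single-nucleus RNA sequencing of inguinal white fat, the pad under the skin of the groin. A nucleus was counted as lymphatic when it held at least 300 genes, at most 10% mitochondrially encoded UMIs (unique molecular identifiers, each standing for 1 captured RNA molecule) and at least 1 UMI of at least 2 of Mmrn1, Prox1, Flt4, Reln and Ccl21a. Nuclei with UMIs of 4 or more of 9 adipocyte genes were left out. The nuclei were thus selected on their own UMIs of these 14 genes, and differences in these genes from other nuclei are no finding. Of 50067 nuclei that passed the filters, 194 met this rule, which is 0.387%. The study has 4 libraries of C57BL/6N mice aged 6 months, 2 labelled WT and 2 labelled PTRF knockout, with PTRF an older name of Cavin1. The labels do not say whether the deletion covers the whole body or how it was made, name no other allele or treatment, and do not say whether a library pools several animals. With 2 libraries a group, p-values measure only the spread between these libraries.

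Lymphatic vessels take up fluid, lipid and leukocytes from tissue and return them to the blood. Blind-ended capillaries with loose, button-like junctions drain into collecting vessels with valves. Lymphatic identity is set and kept by the transcription factor PROX1, and growth of the vessels runs through VEGF-C and its receptor VEGFR3, encoded by Flt4. Mmrn1 encodes the matrix protein multimerin 1, Reln the secreted glycoprotein reelin, and Ccl21a the chemokine that draws dendritic cells and T cells towards lymphatic capillaries.

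The labels were checked first on the targeted gene. Cavin1, which encodes cavin-1, a protein that coats the membrane pits called caveolae, and lies on chr11:100956733-100970887 (GRCm38, minus strand), gave 40 and 9 UMIs over all nuclei of the libraries labelled wild type 1 and 2. It gave 730 and 1759 UMIs in the libraries labelled knockout 1 and 2. The gene was thus high where the labels say it was deleted, with a log2 difference of 5.08 (labelled knockout minus labelled wild type; edgeR adjusted p = 1.05e-16), and the names of the deposited matrices carry the opposite genotype to the labels. Every group below is therefore named by its label, and no direction is assigned to a loss of Cavin1. In the lymphatic nuclei themselves Cavin1 gave 0, 0, 0 and 3 UMIs, in the order wild type 1 and 2, then knockout 1 and 2 as labelled, which is used throughout. At this depth 3 UMIs amount to 22.2, 33.7, 207 and 27.6 CPM (UMIs scaled to the same total in every sum) in the 4 lymphatic sums, so the absence of Cavin1 UMIs sets no firm limit in the library labelled knockout 1.

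The lymphatic nuclei numbered 86, 45, 18 and 45, and their median depth was 1342, 1189, 741.5 and 1971 UMIs, against 1022, 933.5, 844.5 and 1401 over all nuclei kept. Their counts summed to 135207, 88916, 14475 and 108704 UMIs, and these sums set the precision of what follows. As the closest other class, 790 blood vascular nuclei (178, 131, 218 and 263) were taken, with UMIs of at least 2 of Flt1, Ptprb, Cyyr1, Adgrl4 and Vwf, outside the lymphatic gate and under the same limit on adipocyte genes. Libraries shared 53 to 150 cell barcodes with each other, and 1 barcode was a lymphatic nucleus both in the library labelled wild type 2 and in that labelled knockout 1.

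Among the genes that chose the nuclei, Reln was found in 167 of the 194 nuclei (86.1%), Mmrn1 in 143 (73.7%), Prox1 in 101 (52.1%), Flt4 in 82 (42.3%) and Ccl21a in 7 (3.61%). These values describe the choice and are not tested. The gate rested mostly on pairs. In 116 nuclei 2 of the 5 genes were found, in 45 nuclei 3, in 32 nuclei 4, and in 1 nucleus all 5. The most frequent combination was Mmrn1 with Reln alone, in 48 nuclei, and the next was Mmrn1, Prox1, Flt4 and Reln together, in 31 nuclei. Prox1 with Reln followed in 27 nuclei and Mmrn1, Flt4 and Reln in 22.

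Nuclear RNA is rich in unspliced transcripts, in which long genes offer more sites for capture, so levels are given by gene and per length. Reln spans 460 kb (chr5:21884454-22344702), Mmrn1 64.4 kb (chr6:60924976-60989378), Prox1 52.7 kb (chr1:190118035-190170714), Flt4 43.5 kb (chr11:49609263-49652739) and Ccl21a 1.134 kb (chr4:42772860-42773993). In CPM of the summed counts, averaged over the 4 libraries, Reln stood at 2835 ± 1760 (SD, n = 4), Mmrn1 at 1721 ± 890, Prox1 at 617 ± 56.1, Flt4 at 569 ± 177 and Ccl21a at 62.0 ± 97.3. Per kilobase of gene the order of the means was different, with Ccl21a at 54.6 CPM, Mmrn1 at 26.7, Flt4 at 13.1, Prox1 at 11.7 and Reln at 6.16. The ranges of neighbours in this order overlapped between libraries. The level of Ccl21a rests on 3, 0, 3 and 2 UMIs, and its near-identical copy Ccl21b was at 0 in every library, so reads that both genes share could have been lost in counting.

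The promoters of Mmrn1 and Flt4 are printed because these genes were found in the same nuclei and start in DNA of very different make-up. Sequences are from RefSeq (GRCm38.p6), both on the plus strand, and run from 250 bases before to 50 after the start in RefSeq. For Mmrn1 that start is chr6:60944317, inside the GENCODE span given above, whose start at chr6:60924976 comes from another transcript. Over its shorter RefSeq span of 45.1 kb, Mmrn1 stood at 38.2 CPM per kilobase and kept its place in the order above. Capitals mark the letters GGAA or, for the other strand, TTCC, the core that ETS factors such as ERG and ETS1 bind.
Mmrn1, chr6:60944067-60944366: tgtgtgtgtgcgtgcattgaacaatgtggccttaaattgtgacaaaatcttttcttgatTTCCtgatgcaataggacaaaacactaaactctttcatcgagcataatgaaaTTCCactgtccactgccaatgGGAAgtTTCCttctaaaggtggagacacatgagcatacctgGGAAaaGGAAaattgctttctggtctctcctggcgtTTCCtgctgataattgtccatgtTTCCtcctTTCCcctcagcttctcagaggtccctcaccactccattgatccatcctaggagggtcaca
Flt4, chr11:49609429-49609728: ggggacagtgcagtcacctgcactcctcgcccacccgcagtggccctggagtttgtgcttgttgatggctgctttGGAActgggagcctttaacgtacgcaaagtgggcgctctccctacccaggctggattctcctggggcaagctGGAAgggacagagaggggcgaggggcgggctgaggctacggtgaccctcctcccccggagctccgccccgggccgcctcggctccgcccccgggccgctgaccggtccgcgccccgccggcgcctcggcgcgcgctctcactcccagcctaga
The Mmrn1 window had 44.3% GC, 3 CpG and 9 matches to the core, while the Flt4 window had 70.3% GC, 26 CpG and 2 matches. The median over 32851 promoters of the same length was 52.7% GC and 7 CpG. The core occurs in 96.0% of those promoters, so its presence sets neither gene apart. The SOX letters ACAAT (or ATTGT) occurred 3 times in the Mmrn1 window and not in that of Flt4, and they occur in 31.0% of all promoters.

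Endothelial identity was examined with genes that the gate did not use. At least 1 of 12 genes shared by all endothelium (such as Pecam1 and Cdh5, which encode junction proteins) was found in 89.5%, 84.4%, 72.2% and 82.2% of the lymphatic nuclei, against 82.6%, 71.0%, 69.3% and 84.0% of the blood vascular nuclei. Among the remaining nuclei the share was 47.2%, 49.0%, 45.9% and 60.3%. Lyve1, which encodes a hyaluronan receptor of lymphatic capillaries and was not in the gate, was found in 33, 4, 1 and 11 lymphatic nuclei, or 38.4%, 8.89%, 5.56% and 24.4%. In the blood vascular nuclei, at median depths of 949.5, 1023, 903 and 1458 UMIs, Lyve1 was found in 1.12%, 1.53%, 0.917% and 0.760%. A list of 17 lymphatic genes outside the gate was found in 75 of 86, 32 of 45, 7 of 18 and 34 of 45 lymphatic nuclei. In the library labelled knockout 1 that share was 38.9%, close to the 31.7% of its blood vascular nuclei. The other 3 libraries reached 71.1% to 87.2% against 44.4% to 48.9%. Such shares depend on depth, which was lowest in the lymphatic nuclei of the library labelled knockout 1. In CPM the list stood at 6346, 3250, 2280 and 3855, against 1245, 1107, 463 and 701 in blood vascular nuclei. The 2280 CPM rest on 33 UMIs. Blood vascular genes were found in these nuclei too. At least 1 of 10 such genes outside both gates was found in 66.3%, 57.8%, 27.8% and 51.1% of the lymphatic nuclei. The share was 68.5%, 51.1%, 50.5% and 64.6% in blood vascular nuclei. These genes summed to 1649, 1035, 553 and 865 CPM, against 3124, 1488, 1463 and 2796 CPM. A gene of the blood vascular gate was found in 68.6%, 55.6%, 44.4% and 44.4% of the lymphatic nuclei. The lymphatic genes go with the name lymphatic endothelium in 3 libraries. They do so weakly by share of nuclei in the library labelled knockout 1. The ratio of shares and some comparisons between labels are therefore also given without it. Levels and ratios against blood vascular nuclei include it.

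The rule's threshold lies at 2 genes, and nuclei on either side of it, pooled over the libraries, were different in endothelial genes. Of 2626 nuclei with a single gate gene, 48.6% held a pan-endothelial UMI and 0.724% a Lyve1 UMI, close to the 44.5% and 0.664% of nuclei with none. Just inside, the 116 nuclei with 2 gate genes held a pan-endothelial UMI in 75.0% and Lyve1 in 12.1%. By library, Lyve1 was found in 10, 3, 0 and 1 of 41, 32, 15 and 28 such nuclei, so most came from wild type 1 as labelled. In the library labelled knockout 2 the Lyve1 share was 3.57%, against 1.23% with 1 gate gene. Of the 116 nuclei, 23.3% held 3 or more markers of 1 other cell type, against 26.7% with 1 gate gene. With 3 gate genes these shares were 100% and 31.1%, and with 4 or 5 they were 100% and 63.6%. In the library labelled knockout 1, 15 of the 18 nuclei had only 2 gate genes, and the 15 held no Lyve1 UMI. These shares are a description, since depth was not matched between the steps.

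**Figure D1:**
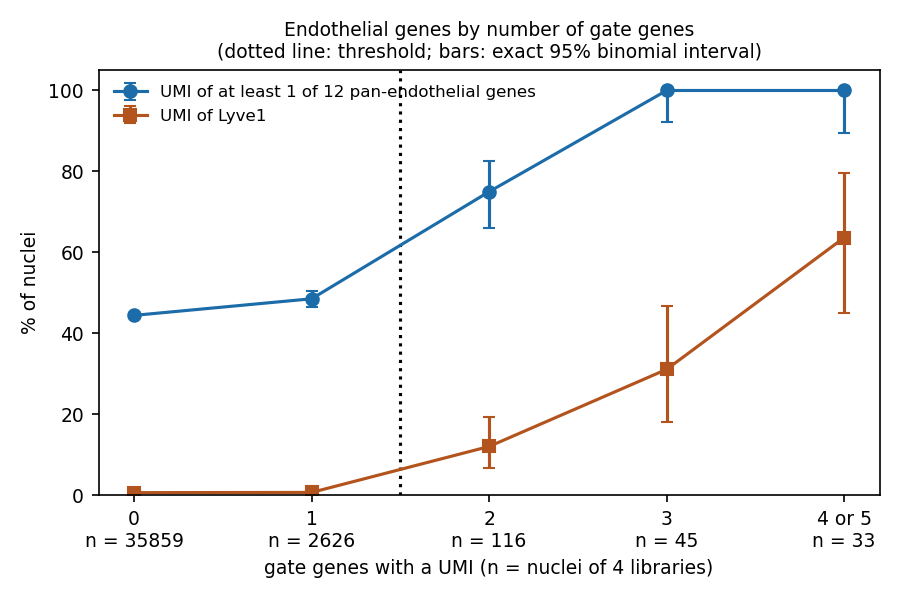
Share of nuclei (%, y axis) with a UMI of at least 1 of 12 pan-endothelial genes (circles) or of Lyve1 (squares), by number of gate genes with a UMI (x axis), over the 4 libraries; bars are exact 95% binomial intervals. Lyve1 lies at 0.724% with 1 gate gene and at 12.1% with 2, on either side of the dotted threshold. The 12.1% rest on 14 nuclei, 10 of them in the library labelled wild type 1.

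Of all Mmrn1 UMIs in the 4 libraries, 637 of 1263 (50.4%) fell in lymphatic nuclei. The share was 34.2% for Prox1, 31.7% for Flt4, 25.4% for Reln and 26.1% for Lyve1. By library, the lymphatic nuclei held 74.2%, 44.0%, 14.0% and 36.4% of the Mmrn1 UMIs. The rest lay in nuclei outside the gate, which includes lymphatic nuclei too shallow to show a second gene, other cells that use these genes, and RNA free in the suspension, and these cannot be told apart here.

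Markers of other cell types were read in the same nuclei. UMIs of 3 or more markers of 1 other class occurred in 8, 6, 3 and 18 of the lymphatic nuclei. Blood vascular and adipocyte genes were not among the classes counted. In the library labelled knockout 2 the markers were mostly those of B cells (8 nuclei) and T or NK cells (5 nuclei). The 7 B cell markers summed to 1760, 1777, 1451 and 2061 CPM, mostly Ebf1, which was as high in blood vascular nuclei. Without Ebf1 the other 6 gave 29.6, 78.7, 484 and 580 CPM (4, 7, 7 and 63 UMIs), higher in both libraries labelled knockout, against 264, 284, 334 and 747 CPM in blood vascular nuclei. The 7 T or NK markers summed to 237, 394, 1105 and 1132 CPM, also higher in both libraries labelled knockout. Macrophage markers stood at 436, 112, 829 and 773 CPM, fibroblast or progenitor markers at 370, 484, 138 and 883 CPM, and pericyte or smooth muscle markers at 288, 371, 138 and 258 CPM. The 9 adipocyte genes, which the rule limits, stood at 1280, 956, 1589 and 1720 CPM. Blood vascular nuclei, under the same limit, stood at 1601, 1107, 1137 and 2086 CPM. The remaining nuclei, which have no such limit, stood at 11336, 5616, 6246 and 15495 CPM, and that gap is no finding. Mammary epithelial markers stood at 407, 799, 276 and 718 CPM, plasma cell markers at 59.2, 101, 69.1 and 184 CPM, and Schwann markers at 66.6, 146, 345 and 64.4 CPM. Mesothelial markers reached 78.7 CPM at most, those of mature dendritic cells 120 CPM and those of lymph node stroma 120 CPM. Of the lymph node stroma markers, Ccl19 and Madcam1 were at 0 UMIs in every library, and Cr2 gave 1, 0, 0 and 13 UMIs. Among the 6 markers of lymph node lymphatics, Madcam1 and Marco were at 0 in each library. Mrc1, also counted as a macrophage marker, gave 10, 1, 5 and 20 UMIs, and Ackr4 gave 4, 6, 2 and 2. The 6 summed to 104, 101, 484 and 239 CPM, against 73.2, 136, 125 and 94.4 CPM in blood vascular nuclei. How much these other cells add to the values below was not tested, except where values without such nuclei are given.

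Against blood vascular nuclei of the same library, the 20 leading genes outside the gate included several known lymphatic genes. The ranking is the mean over 4 libraries of the log2 ratio of CPM plus 5, among 2457 genes found in at least 10% of the lymphatic nuclei, and it describes the chosen nuclei without a test. Fgl2, which encodes a fibrinogen-like secreted protein, led with a mean log2 ratio of 4.45 (73, 23, 6 and 21 UMIs in lymphatic nuclei, 16 in all blood vascular nuclei). Lyve1 followed at 3.83, and then Maf, a transcription factor gene of the lymphatic programme, at 3.79. Lyve1 gave 136, 11, 1 and 53 UMIs, or 1006, 124, 69.1 and 488 CPM, and Maf gave 181, 11, 9 and 74 UMIs, or 1339, 124, 622 and 681 CPM. Both were highest in the library labelled wild type 1, and the library labelled wild type 2 lay below that labelled knockout 2. Il7, the cytokine that keeps T cells alive, reached 3.57 with 35, 18, 1 and 9 UMIs. Sema3d, a secreted guidance protein gene, reached 2.97 with 127, 59, 4 and 46 UMIs.

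The other leading genes were Gpm6a, a neuronal-type membrane glycoprotein gene (3.46), Pard6g, a cell polarity gene (3.28), Fgf12 (3.16), Apba2 (3.05), Tc2n (3.04) and Ackr2, the scavenger receptor of inflammatory chemokines (2.99). Lower in the ranking were Tnfaip8l3 (2.82), Hmcn1, a basement membrane gene (2.81), Jph1 (2.55), Klhl4 (2.46), Tgfbi (2.38), the matrix genes Tnxb (2.34) and Abi3bp (2.32), Dtx1 (2.31) and 1 unnamed gene. Of these 20 genes, 19 were higher in the lymphatic nuclei in each of the 4 libraries. The same 4 ratios ranked the genes, so this count follows in part from the choice. In the library labelled knockout 1 a single UMI amounts to 69.1 CPM. Lyve1, Il7, Ackr2, Tnfaip8l3, Klhl4 and Dtx1 rest on 1 UMI each there, so for them that library adds little to the count. Gpm6a had the widest range, from 1.58 to 7.50.

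**Figure D2:**
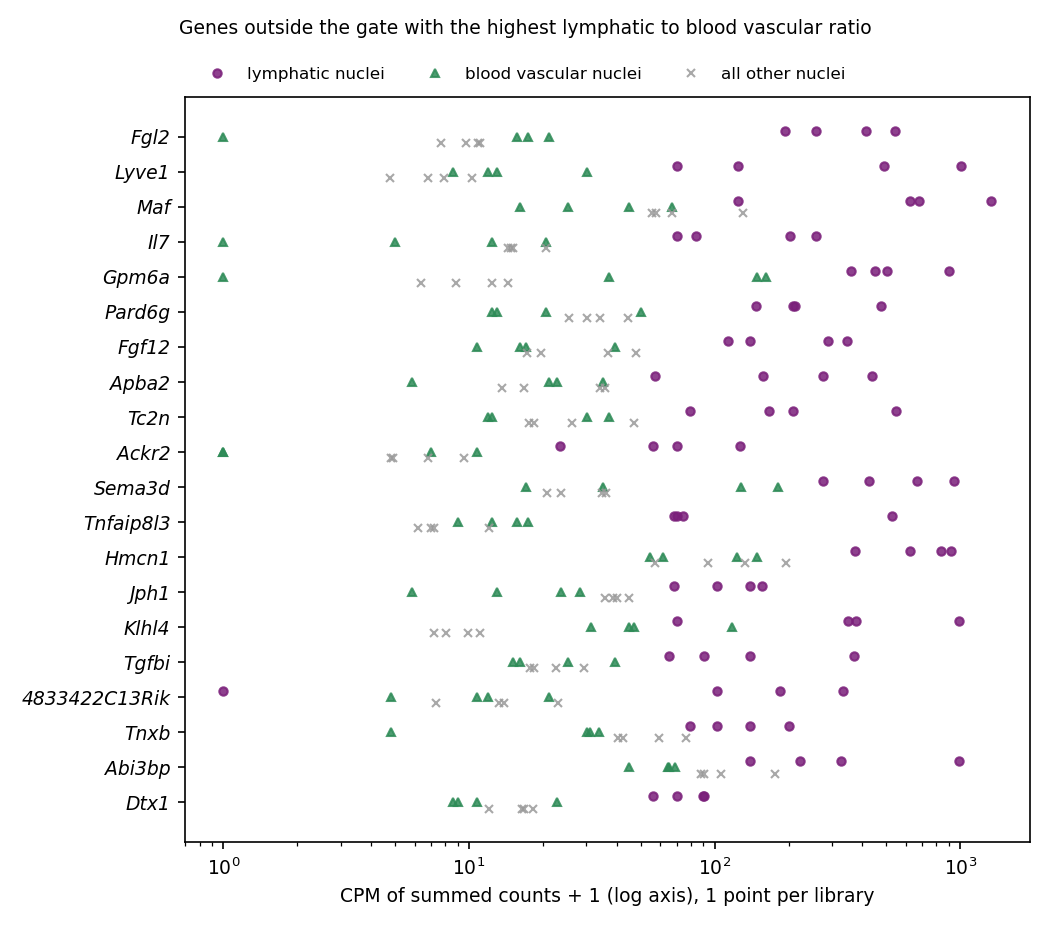
CPM of summed counts plus 1 (x axis, log scale) of the 20 leading genes outside the gate (y axis), with 1 point per library for lymphatic nuclei (circles), blood vascular nuclei (triangles) and all other nuclei (crosses). Fgl2 lies between 193 and 540 CPM in the lymphatic nuclei, against a mean of 12.8 CPM in the blood vascular nuclei.

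Of the lymphatic markers outside the gate, 7 of 15 at 20 CPM or more were higher than in blood vascular nuclei in every library and 0 were lower. Of 19 transcription factors of the lymphatic programme outside the gate, 16 reached 20 CPM, and 7 of these were higher in lymphatic nuclei in every library, while 3 were lower in every library. Over all 8445 genes at that level, 6.12% were higher and 6.31% lower in every library. Besides Maf, the 7 include Nr2f2 (COUP-TFII, which works with PROX1), at 91, 24, 2 and 43 UMIs and a log2 ratio of 2.11, and Meis2 at 1.95. Tbx1, a T-box gene needed for lymphatic growth, gave 5, 4, 2 and 11 UMIs in lymphatic nuclei and 1 UMI in all blood vascular nuclei. Zfp521 (1.29), Nfatc1 (0.75) and Foxo1 (0.67) complete the 7. The flow-responsive factors Klf2 and Klf4 were lower in lymphatic nuclei in every library, at -1.35 and -1.42. Foxc2, the valve factor, was at 0 in all lymphatic sums. In the library labelled knockout 1 a single UMI amounts to 69.1 CPM, above the cut of 20 CPM. There Klf4 and, in the lists below, Tek gave 0 UMIs and Sned1 gave 1. A count of genes higher or lower in every library can thus turn on 1 UMI or none in that library.

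In the VEGF-C and angiopoietin axis, 3 of 16 genes were higher in every library and 2 were lower. Angpt2, the TIE2 ligand that lymphatic growth requires, stood at a log2 ratio of 2.79 (11, 8, 2 and 13 UMIs). Itga9, the integrin subunit of lymphatic valves, stood at 1.88, and Ptpn14, a phosphatase gene that restrains VEGFR3, at 1.25. The receptor genes Tek (TIE2) and Nrp1 were lower in every library, at -1.75 and -1.06. Nrp2, the VEGF-C co-receptor, did not separate the classes, at -0.04 with 26, 7, 1 and 41 UMIs. Calcrl, the adrenomedullin receptor component through which lymphatic vessels grow, stood at 1.60.

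The matrix list held 6 of 15 genes higher in every library, led by Lama4 (laminin alpha 4, 183, 41, 11 and 85 UMIs, log2 ratio 2.00) and Sned1 (1.41). Of the flow and stretch genes, Piezo2, which encodes a mechanically gated channel, was higher in each library (145, 91, 13 and 67 UMIs, 1.34), while Piezo1 was lower in each (-0.44). Sema6a, a guidance gene, was higher in each library too, at 1.07. Of the leukocyte trafficking genes, 3 of 14 were higher in every library, which were Il7, Lyve1 and Ackr2. Of the junction genes, 0 of 15 were higher and 4 were lower in every library, among them Cdh5 (-0.64).

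Of 12 lipid handling genes at 20 CPM or more, 6 were lower in the lymphatic nuclei in every library and 1 was higher. Fabp4, the fatty acid binding protein gene of fat capillaries, gave 28, 1, 5 and 50 UMIs in lymphatic nuclei against 2599 in blood vascular nuclei (log2 ratio -3.79). Cd36, which encodes a fatty acid transporter, gave 32, 8, 4 and 21 against 1991 (-3.00). Pparg, the nuclear receptor that drives both genes in adipocytes and in fat endothelium, stood at -1.61. Mecom, an arterial and capillary factor gene, stood at -3.05 and Cav1 (caveolin-1) at -1.10, whereas Cavin2, another caveolar coat gene, was higher in the lymphatic nuclei in each library at 0.86.

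Capillary and collector markers did not split the nuclei into clean groups. In the library labelled wild type 1, 21 nuclei held only capillary markers, 15 only collector or valve markers, 23 both and 27 neither. The corresponding counts were 7, 9, 13 and 16 in wild type 2, 1, 4, 3 and 10 in knockout 1, and 11, 9, 13 and 12 in knockout 2, all as labelled. At these depths a nucleus without a UMI of a marker is not shown to lack it, and how far depth sets these counts was not tested.

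A small set of nuclei stood apart by Stab2, which encodes a hyaluronan scavenger receptor of sinus endothelium, and it was singled out after its values were seen. The 4 sums held 20, 4, 3 and 166 Stab2 UMIs. Of these 193 UMIs, 184 lay in 6 nuclei with 17 to 46 UMIs each, 1 in the library labelled wild type 1 and 5 in that labelled knockout 2. The other 188 nuclei held 9 Stab2 UMIs in all. Prox1, Sema3d, F8 (coagulation factor VIII) and Cd55 were each found in 6 of the 6 nuclei, Stab1 in 5, Mrc1 in 4 and Lyve1 in 3. Among the others, F8 was found in 16 of 188 and Mrc1 in 17 of 188. Piezo2 gave 0 UMIs in the 6 nuclei against 316 in the others, and the macrophage gene Adgre1 gave 0. The 6 nuclei also held 85 of the 148 Lsamp UMIs, 28 of the 45 Tnc UMIs and 21 of the 49 Lepr UMIs, and their median depth was 2960 UMIs against 1267.

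The share of lymphatic nuclei was lower in both libraries labelled knockout than in both labelled wild type. It was 0.554% (exact 95% binomial interval 0.443% to 0.684%) and 0.675% (0.493% to 0.903%) in the libraries labelled wild type, and 0.150% (0.0890% to 0.237%) and 0.283% (0.207% to 0.379%) in those labelled knockout. Intervals cover counting error only. The means were 0.615% ± 0.0859 (SD, n = 2) and 0.217% ± 0.0941 (n = 2), and the groups did not overlap. The ratio of the means, labelled knockout over labelled wild type, was 0.353. An exact permutation test over the 4 libraries, two-sided, gave p = 0.333, the smallest value that 2 against 2 allows. Without the library labelled knockout 1 the ratio was 0.461. Shares of nuclei from a tissue piece follow both the number of cells of a type and how well their nuclei were recovered, and these cannot be told apart.

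Depth and the other rules for choosing nuclei left that order in place. With every nucleus thinned to 500 UMIs, 66, 21, 14 and 23 nuclei met the gate, or 0.425%, 0.315%, 0.117% and 0.145%, again without overlap between groups and with a ratio of 0.353. With at least 3 gate genes required, 45, 13, 3 and 17 nuclei remained (0.290%, 0.195%, 0.0250% and 0.107%). Blood vascular nuclei made up 1.146%, 1.966%, 1.818% and 1.655% of the nuclei, where the groups overlapped (ratio 1.116, exact permutation p = 1). As a share of both endothelial classes, lymphatic nuclei made up 32.6%, 25.6%, 7.63% and 14.6%. The adipocyte rule removed 3, 1, 3 and 18 nuclei that otherwise met the gate, and with them kept the shares were 0.573%, 0.690%, 0.175% and 0.397%.

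The level of the gate genes over all nuclei, with no gate applied, gave a smaller difference. Mmrn1 stood at 27.2, 21.5, 12.2 and 10.8 normalised CPM, without overlap between the groups (log2 difference -1.09, unadjusted p = 0.018, adjusted p = 1 over 28075 genes, edgeR). Prox1 stood at 9.66, 11.6, 6.75 and 7.46 normalised CPM and Reln at 70.3, 73.1, 60.1 and 45.7, also without overlap, at log2 differences of -0.57 and -0.44. Flt4 (7.63, 8.85, 5.51 and 8.27) and Lyve1 (13.5, 7.39, 3.47 and 12.3) overlapped between the groups, and Ccl21a gave 20, 0, 3 and 31 UMIs. None of the 5 gate genes or Lyve1 was called, in a comparison that called 29 of 28075 genes (0.103%). Over all genes, 7.60% lay lower in both libraries labelled knockout than in both labelled wild type.

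**Figure D3:**
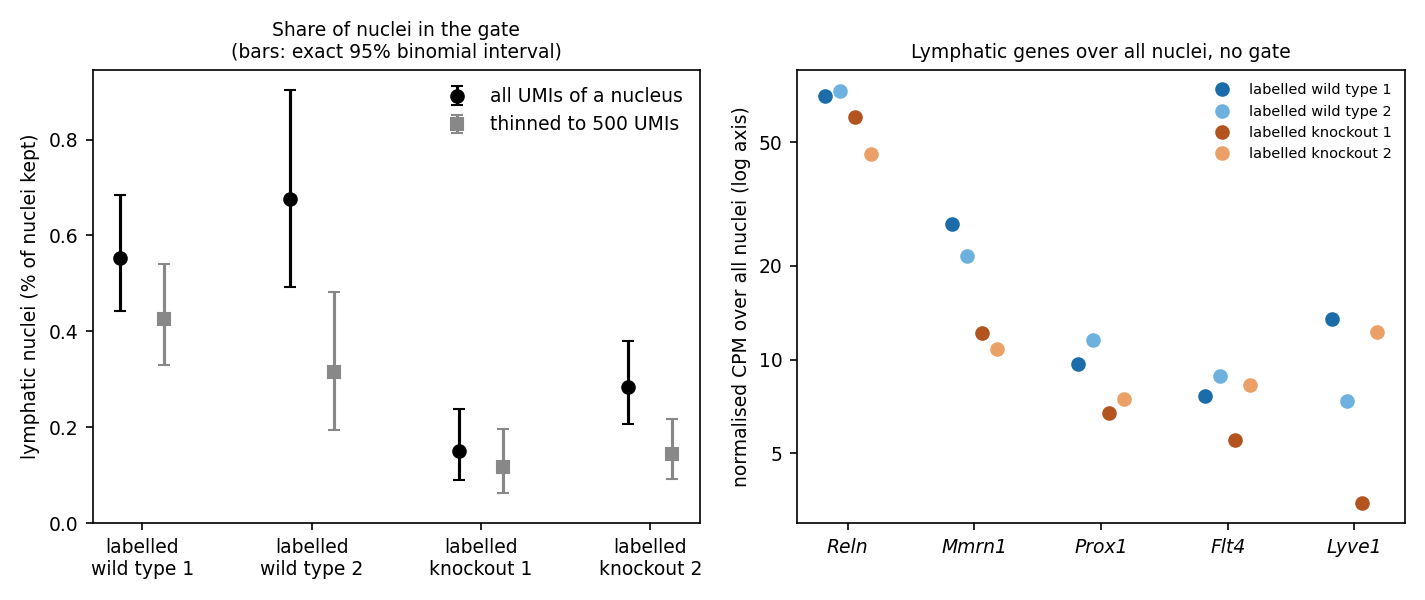
Left, lymphatic nuclei as a share of nuclei kept (%, y axis) in each library, with all UMIs (circles) or thinned to 500 UMIs a nucleus (squares), and exact 95% binomial intervals; both libraries labelled knockout lie below both labelled wild type. Right, normalised CPM (log axis) of 5 lymphatic genes over all nuclei, 1 point per library, with Flt4 and Lyve1 overlapping between the labels.

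Within the lymphatic nuclei, counts were summed per library and compared between labels. Of 2404 genes tested, 1 was called (0.0416%), and 110 had an unadjusted p under 0.05 (edgeR; DESeq2 called 1 gene as well). The called gene was Gm47283, a predicted protein-coding gene on chrY:90784738-90816464 (plus strand, GRCm38), named although predicted because it was the single call. It gave 5, 4, 22 and 152 UMIs, or 56.3, 74.0, 2332 and 2093 normalised CPM, in 5, 3, 10 and 33 nuclei, and the groups did not overlap. Its log2 difference was 5.06 (SE 0.67, edgeR adjusted p = 0.00155). The same gene was called in blood vascular nuclei (4.92) and over all nuclei (5.63), and reads shared with near-identical copies of it may have been counted elsewhere. The position is that of the annotation alone, and whether the gene is confined to chrY was not examined. It is therefore not used as a marker of sex. Whether the sex of the animals differed between the labels was not tested with this or any other gene.

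Genes that the labels did not separate past the threshold include 6 with the smallest p in each direction. Higher in the libraries labelled knockout were Igfbp4 (log2 difference 4.00), Tnc (3.53), Bank1 (3.40), Stab2 (3.20), Lef1 (3.03) and Lsamp (2.65). Their edgeR adjusted p-values were 0.325, or 0.577 for Bank1. Tnc, which encodes the matrix protein tenascin C, gave 3, 2, 2 and 38 UMIs, with 17 of the 38 in 1 nucleus. Lsamp, a neuronal adhesion gene, gave 11, 19, 14 and 104, with 56 of the 104 in 1 nucleus. Bank1, a B cell gene, gave 0, 5, 3 and 34 UMIs and Lef1, a T cell and Wnt pathway factor gene, 4, 3, 2 and 37, so the values beside the B and T cell markers above apply to both. When nuclei with 3 markers of another class were left out, 7 genes were called, among them Stab2 and Lsamp (5.39 with edgeR adjusted p = 0.000336 and 3.15 with 0.00337). Without the library labelled knockout 1, which leaves 1 library in that group, the log2 differences were 3.81 for Stab2, 3.78 for Tnc and 2.57 for Lsamp. Stab2 stood at 0.93 without the library labelled knockout 2, and Bank1 at 2.09 without wild type 1 and at 7.54 without wild type 2 as labelled. Stab2 rests on the 6 nuclei described above, which also held 28 of the 45 Tnc UMIs and 85 of the 148 Lsamp UMIs.

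Lower in the libraries labelled knockout were Csmd1 (-2.73), Mboat1 (-2.61), Dennd4a (-2.28), Cast (-2.11), Slc8a1 (-1.98) and Cdh13 (-1.87), with edgeR adjusted p-values of 0.325 to 0.847. Without nuclei holding 3 markers of another class, Cast (-3.12, adjusted p = 0.0445), Dennd4a (-2.79, 0.0392) and Slc8a1 (-2.76, 0.0392) passed the threshold. Mboat1 gave 35, 46, 0 and 9 UMIs and stood at -7.98 without the library labelled knockout 2. Of its 46 UMIs in the library labelled wild type 2, 26 lay in 1 nucleus. Csmd1, a complement regulator gene, gave 322, 203, 3 and 50 UMIs, but 303 of the 322 lay in 1 nucleus of the library labelled wild type 1 and 168 of the 203 in 1 nucleus of wild type 2. With at most 1 UMI counted per gene and nucleus its log2 difference was 0.42, in the opposite direction. Cdh13, which encodes the adiponectin-binding T-cadherin, gave 93, 89, 3 and 28 UMIs in 33, 25, 3 and 6 nuclei, spread over more nuclei than Csmd1. Slc8a1, the sodium-calcium exchanger gene, gave 134, 86, 3 and 31 UMIs in 36, 19, 2 and 10 nuclei. Dennd4a gave 154, 42, 2 and 20 UMIs and Cast, the calpain inhibitor gene, 87, 37, 1 and 16. The groups did not overlap for any of these 12 genes, as for 34.9% of all genes tested, and 20.2% of all genes tested lay lower in both libraries labelled knockout.

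**Figure D4:**
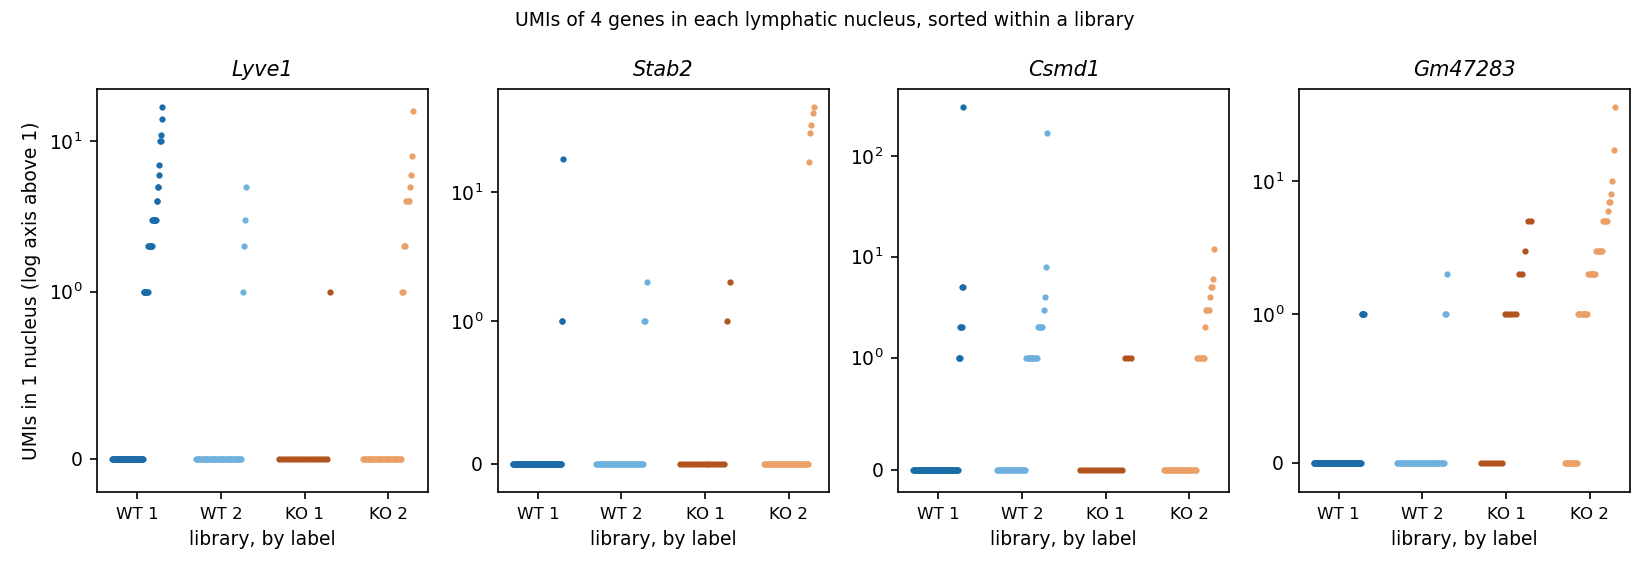
UMIs of Lyve1, Stab2, Csmd1 and Gm47283 in each lymphatic nucleus (y axis, logarithmic above 1), sorted within each library (x axis, WT and KO as labelled). Most Csmd1 UMIs lie in 1 nucleus of each library labelled WT, most Stab2 UMIs in 5 nuclei of the library labelled KO 2, and Gm47283 is spread over 33 of 45 nuclei there.

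No gene of the lymphatic, endothelial or metabolic lists was called between the labels in lymphatic nuclei. Over all 2404 genes, 1098 lay above 0 with a median of -0.08 on the log2 scale. Among transcription factors 5 of 11 tested genes lay above 0 (median -0.00), in the VEGF-C and angiopoietin axis 7 of 12 (0.20), among guidance genes 6 of 12 (-0.06), among junction genes 3 of 10 (-0.15) and among matrix genes 3 of 12 (-0.29). Prox1 in particular stood at 1025, 889, 954 and 950 normalised CPM (-0.01), Flt4 at 755, 592, 1166 and 992 (0.65), and Maf at 2040, 204, 954 and 1019 (-0.20). Prox1 and Flt4 were used to choose the nuclei, so their levels within the class are partly set by the gate.

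Caveola components other than Cavin1 had 0 of 4 above 0 (median -1.22), with Cavin2 at 2006, 555, 424 and 606 normalised CPM and Cav1 at 732, 352, 106 and 289. The groups overlapped for Cavin2 and did not for the other 3 (Cav1, Pacsin2 and Ror1), as for 34.9% of all genes tested. In the library labelled knockout 1, Cav1 rests on 1 UMI, Pacsin2 and Ror1 on 2 each and Cavin2 on 4. Glucocorticoid and metallothionein genes had 0 of 3 above 0 (median -1.49). Of these, Fkbp5, a glucocorticoid-induced chaperone gene, stood at 1972, 1111, 848 and 386 normalised CPM (log2 difference -1.49, unadjusted p = 0.030, adjusted p = 0.996), and over all nuclei it stood at 1063, 495, 154 and 395 normalised CPM. Leukocyte trafficking genes had 2 of 6 above 0 (median -0.62), flow and stretch genes 2 of 5 (-0.16), Notch and BMP genes 2 of 4 (-0.07) and lipid handling genes 4 of 6 (0.79). Among immediate early and heat shock genes, 0 had enough counts to be tested.

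The same comparison in blood vascular nuclei called 3 of 5583 genes (0.0537%), which were Gm47283, Cavin1 (1, 0, 48 and 62 UMIs, log2 difference 5.65, edgeR adjusted p = 0.0248) and Lepr, the leptin receptor gene (-3.54, adjusted p = 0.0375). Whether the difference between labels itself differs between lymphatic and blood vascular nuclei was tested as an interaction on 8 sums, and 0 of 5347 genes were called (226 with an unadjusted p under 0.05; 0 by DESeq2). The smallest adjusted p belonged to Lepr. It stood at 248, 37.0, 318 and 303 normalised CPM in lymphatic nuclei and at 333, 143, 14.7 and 23.6 in blood vascular nuclei, and the difference of the log2 differences was 4.46 (edgeR adjusted p = 0.0651). The lymphatic values rest on 22, 2, 3 and 22 Lepr UMIs in 16, 1, 2 and 4 nuclei, and 21 of these 49 UMIs lay in 3 of the 6 nuclei rich in Stab2. For Csmd1 it was -2.70 (adjusted p = 0.112), resting on the 2 nuclei named above. Of the lymphatic genes outside the gate, 0 of 6 lay above 0 in the blood vascular nuclei (median -1.71, against 0.00 over all genes tested), and 0 were called. There, Sema3d stood at 154, 235, 44.2 and 18.9 normalised CPM (log2 difference -2.71, edgeR adjusted p = 0.203), without overlap between the groups, as for 29.3% of all genes tested.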

How the data were processed

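Libraries were made with the GEXSCOPE single-nucleus chemistry of Singleron and read on an Illumina NovaSeq, per the labels' protocols. The deposited matrices give unnormalised UMI counts, with 500 UMIs the lowest total of a barcode. GRCm38 (mm10) and Seurat 4.3.0 are named in the submitters' processing notes, and for the aligner and for strand use in counting the sources used here give nothing, so overlapping genes may share reads. No doublet caller was run here, and doublets remain.

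The members and gene lists were chosen with earlier results of these data known. Filters were at least 300 genes and at most 10% mitochondrial UMIs. Counts were summed per library over each class. After filterByExpr and TMM scaling the sums were tested in R 4.3.3 with the edgeR 4.0.16 quasi-likelihood F test, two-sided, with Benjamini-Hochberg adjustment over all genes tested and a threshold of 0.05. DESeq2 1.42.0 was an alternative. "Normalised CPM" comes from that fit and uses only the genes tested, so it is larger than CPM of the summed counts. Lymphatic against other nuclei is a description, since markers chose the nuclei. Coordinates are from GENCODE M21, which held 53620 of 53715 gene identifiers. The test code was checked on simulated data with a fixed spread between libraries. That check does not tell how many real differences the lymphatic sums could miss.

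Genes named are the gate genes, Cavin1, list genes of at least 20 CPM on average (220 of 312 qualified, of which those described were picked with values known), the 20 leading genes, and the 6 smallest p per direction. Predicted genes are counted, not named, with the single call as an exception. Replicate numbers were not used as a block, as same-numbered libraries did not deviate together (correlation -0.0917 over genes in lymphatic nuclei).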

Additional observations from a re-analysis of the deposited data

How the results depend on the processing

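The share of lymphatic nuclei stayed lower in both libraries labelled knockout than in both labelled wild type under each alternative gate, denominator and depth. Leaving out 1 library in turn gave ratios of 0.244 to 0.461. The level of Ccl21a over all nuclei went the other way, with a ratio of 1.11 on few UMIs.

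The count of 1 gene called between labels in lymphatic nuclei became 0 without a filter on low counts and 0 with the replicate number as a block (replicate block), where Gm47283 kept its direction (4.61 with adjusted p = 0.884, and 5.05 with adjusted p = 0.217, edgeR). It became 7 with at least 3 gate genes, 7 without Reln in the gate, 7 without nuclei holding 3 markers of another class, 5 without the adipocyte exclusion, and 1 to 9 with 1 library left out (5 without the library labelled knockout 1, 9 without that labelled knockout 2). Fewer genes were tested under the stricter gates. With 1 library left out, 1 group holds a single library, so those counts, here and below, carry no spread within that group. The causes were otherwise not tested. Csmd1 reversed to 0.42 with at most 1 UMI per gene and nucleus.

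In blood vascular nuclei the count of 3 became 11 without the filter, 28 with crossed replicate numbers, where the deviations had correlated at -0.335, and 7 to 20 with 1 library left out. The replicate block left that count at 3. The interaction count of 0 became 1 with DESeq2 size factors, 2 with at least 3 blood vascular genes, and 0 to 4 with 1 library left out. The interaction test already pairs the lymphatic and blood vascular sums of each library, since each library enters as its own block. No further pairing was added. The capped counts, the gate without the adipocyte exclusion, the crossed numbers and the levels over all nuclei were added after seeing the data.

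Depth limits the library labelled knockout 1 most, where 18 nuclei gave 14475 UMIs and 3 UMIs amount to 207 CPM.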
